A study of Mus musculus with 12 samples.

Results

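The genes of MHC class II antigen presentation were followed in the RPE of WT and rd6 mice. The 10 genes were chosen by name, not by their values, and are the class II chains *H2-Aa*, *H2-Ab1* and *H2-Eb1*, the peptide-loading chains *H2-DMa*, *H2-DMb1*, *H2-DMb2*, *H2-Oa* and *H2-Ob*, the invariant chain *Cd74* and the transactivator *Ciita*. All 10 were found among the 28591 genes measured. The RPE is the pigmented epithelium behind the photoreceptors, and RNA was sequenced from 6 libraries of WT mice (C57BL/6J) and 6 libraries of rd6 mice (genotype Mfrp rd6/rd6), all 1 mo old. The rd6 allele is a spontaneous splice-site mutation of *Mfrp*, a membrane protein gene of the RPE, and is carried in all cells of the animal. Each library holds the RPE of both eyes combined, taken from the eyecup after the neural retina was lifted off. The study used both sexes unless noted, and whether the WT mice were littermates of the rd6 mice is not given in the sources used here.

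Class II molecules are pairs of an α and a β chain that carry peptides from the endolysosome to the cell surface, where CD4 T cells read them. The invariant chain CD74 holds the empty groove until proteases cut it down, DM then exchanges the remaining fragment for peptide, and DO restrains DM. CIITA, which interferon γ can induce, switches the whole group on through proteins bound to shared promoter elements, the X and Y boxes. Dendritic cells, B cells and activated macrophages or microglia are the classical users of the pathway, and a resting RPE cell expresses little of it. C57BL/6J mice make no functional Eα chain, so that *H2-Eb1* is transcribed there without its partner.

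In the RPE of rd6 mice all 10 genes had a higher mean than in WT, and 6 of them rose beyond the replicate error. The DO chain *H2-Oa*, close to absent in WT, was at least 8.05-fold higher, and its partner *H2-Ob* was 3.82-fold higher, but both reached the minimum level for testing only through the rd6 libraries. *H2-DMb2* rose 2.10-fold, a call lost in 1 of 20 alternatives, and *H2-DMb1* rose 1.64-fold. The surface chains and *Cd74* had modest fold changes between 1.36 and 1.5, and of these *H2-Ab1* and *Cd74* passed the test, calls that were lost in 10 and 7 of 21 alternatives. Over the same libraries 18 microglia and macrophage markers summed to 2.22-fold more in rd6. Without *Csf1r*, the abundant marker that did not rise and was left out after seeing the data, the fold was 7.22.

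The levels are normalized counts, the reads of a gene divided by a size factor of its library. Libraries held from 29218135 to 33152725 reads on genes in WT and from 28907262 to 32336530 in rd6, and a floor of 3 reads was worth at most 3.32 normalized counts. This floor covers counting error only. Differences were tested with limma on log2(normalized count + 1), with q the Benjamini-Hochberg adjusted p-value over 17768 genes, those whose mean reached 10. Folds are taken from this scale and understate the change of scarce genes. "Rose" and "fell" mean q below 0.05, and "called" adds a change of at least 1.75-fold. Of all genes tested, 11.4% rose and 11.6% fell, and 4.69% were called higher and 2.12% called lower. *Mfrp* itself was at 30130 to 45440 normalized counts in WT and 20440 to 29730 in rd6 (log2 fold change -0.63, limma q = 0.00126). Of the RPE markers *Best1* was scarce, at 9.34 to 48.7 over all libraries, and the list of 7 summed to between 918295 and 1351567 normalized counts in WT and between 592603 and 847975 in rd6. Replicate 4 of WT stood apart in *Irf1*, *Ctsh*, *Cd44* and *Cd274*, and replicate 5 of rd6 in rod genes, whose sum of 54542 was within the WT range of 24160 to 59956 while the other rd6 libraries were at 17158 or lower.

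Of the 10 genes, 8 lie together in 224.335 kb of the MHC on mouse chromosome 17 (chr17:34092340-34316674, GRCm38), in the order *H2-Oa*, *H2-DMa*, *H2-DMb2*, *H2-DMb1*, *H2-Ob*, *H2-Ab1*, *H2-Aa* and *H2-Eb1*. Of the genes that rose, 4 are *H2-Oa* (ENSMUSG00000024334, chr17:34092340-34095234), *H2-Ob* (ENSMUSG00000041538, chr17:34238903-34254414), *H2-DMb2* (ENSMUSG00000037548, chr17:34143307-34151555) and *H2-DMb1* (ENSMUSG00000079547, chr17:34153072-34160230), all on the + strand. *Ciita* is on chromosome 16 (chr16:10480059-10528418). Promoter sequences were available for 7 members. They were searched on both strands, from 250 bases before to 50 bases after the RefSeq start (GRCm38.p6), for an X1 box core (ACNGATG), a Y box (ATTGG) and an X1 core followed on the same strand by a Y box that begins 10 to 30 bases after its end. The core was in 9.85% of all 32841 promoters of the table, the Y box in 37.4%, and the spaced pair in 0.158%. The pair was in the promoters of 3 members, *H2-Eb1*, *H2-DMb1* and *H2-DMb2*. The motifs do not overlap each other. The following windows of 55 bases show the arrangement, with the X1 core and the Y box in capitals. The first pair of windows holds both elements, and the other windows hold a Y box with no X1 core as spelled here.
H2-Eb1: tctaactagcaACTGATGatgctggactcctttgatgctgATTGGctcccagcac
H2-DMb2: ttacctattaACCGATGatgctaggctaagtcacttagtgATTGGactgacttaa
H2-Aa: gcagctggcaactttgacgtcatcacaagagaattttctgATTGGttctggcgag
H2-Ob: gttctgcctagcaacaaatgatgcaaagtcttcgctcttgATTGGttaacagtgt

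The *H2-Eb1* window is chr17:34305768-34305822 on the + strand, with 22 bases between the elements and the Y box beginning 59 bases before the start. The *H2-DMb2* window is chr17:34145119-34145173 on the + strand, with 23 bases between them and the Y box 90 bases before the start. *H2-DMb1* had the same spacing of 23 bases, but its elements lie in a first exon of the gene as GENCODE annotates it and are not printed. The *H2-Aa* window is chr17:34287857-34287911 on the - strand and the *H2-Ob* window chr17:34238808-34238862 on the + strand, with Y boxes 48 and 57 bases before the start. *H2-Oa* had a Y box 43 bases before its start and an X1 core outside the stated distance. A match of letters is a description of the sequence and no evidence that a factor binds. Of the 50 genes with the spaced pair, 10 are *H2* genes. The 5 *H2* genes among them that are not members and were tested, *H2-D1*, *H2-M3*, *H2-Q4*, *H2-Q6* and *H2-Q7*, are class I genes or class I-like genes, and all 5 rose, with log2 fold changes from 0.84 to 1.42. Of the other 19 tested genes with the pair, 1 rose and 3 fell, beside 11.4% and 11.6% of all genes tested. Reads of the *H2-Q* genes can be divided among near-identical copies, so that their values are uncertain.

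The surface chains were measured first. *H2-Aa*, which codes for the α chain of I-A, was at 152.8 to 280.7 normalized counts in WT (median 187.9) and at 206.4 to 372.8 in rd6 (median 267.6). The groups overlapped, with 3 of the 6 rd6 libraries above every WT library. Its log2 fold change was 0.44 (standard error, SE, 0.19, with limma q = 0.110). *H2-Ab1*, the β chain of I-A, was at 106.3 to 249.6 in WT (median 180.4) and 205.4 to 310.1 in rd6 (median 256.6). Here 5 of 6 WT libraries lay below every rd6 library, and *H2-Ab1* rose with a log2 change of 0.58 (SE 0.19, limma q = 0.0407). *H2-Eb1*, the β chain of I-E, was at 126.2 to 215.6 in WT (median 140.7) and 151.8 to 273.2 in rd6 (median 235.1). Its log2 fold change of 0.50 (SE 0.18) came close to the limit without passing it (limma q = 0.0573). An annotated antisense gene overlaps *H2-Eb1*, and the counting program was used at its standard parameters, which do not use strand, so that reads of a gene and of its antisense partner cannot be told apart.

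*Cd74*, the invariant chain, lies on chromosome 18. It was at 357.7 to 617.8 normalized counts in WT (median 523.1) and 577.0 to 872.0 in rd6 (median 702.0). In rd6 replicates 1, 2 and 6 it was at 801 or higher, above every WT library, while replicates 3, 4 and 5 at 577 to 603 lay within the WT range. *Cd74* rose with a log2 change of 0.48 (SE 0.15, limma q = 0.0363). The tests of *H2-Ab1* and *Cd74* rested on few libraries. Without any one of WT replicates 1, 2 and 6 or rd6 replicates 1, 2 and 6 both lost significance, as did *H2-Ab1* without rd6 replicate 4, with q of at most 0.0874 for *H2-Ab1* and 0.0786 for *Cd74*. Without WT replicate 4, which had the highest *H2-Aa* and *H2-Eb1* of its group, these chains also passed the test (limma q = 0.0401 and 0.0193).

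**Figure D1:**
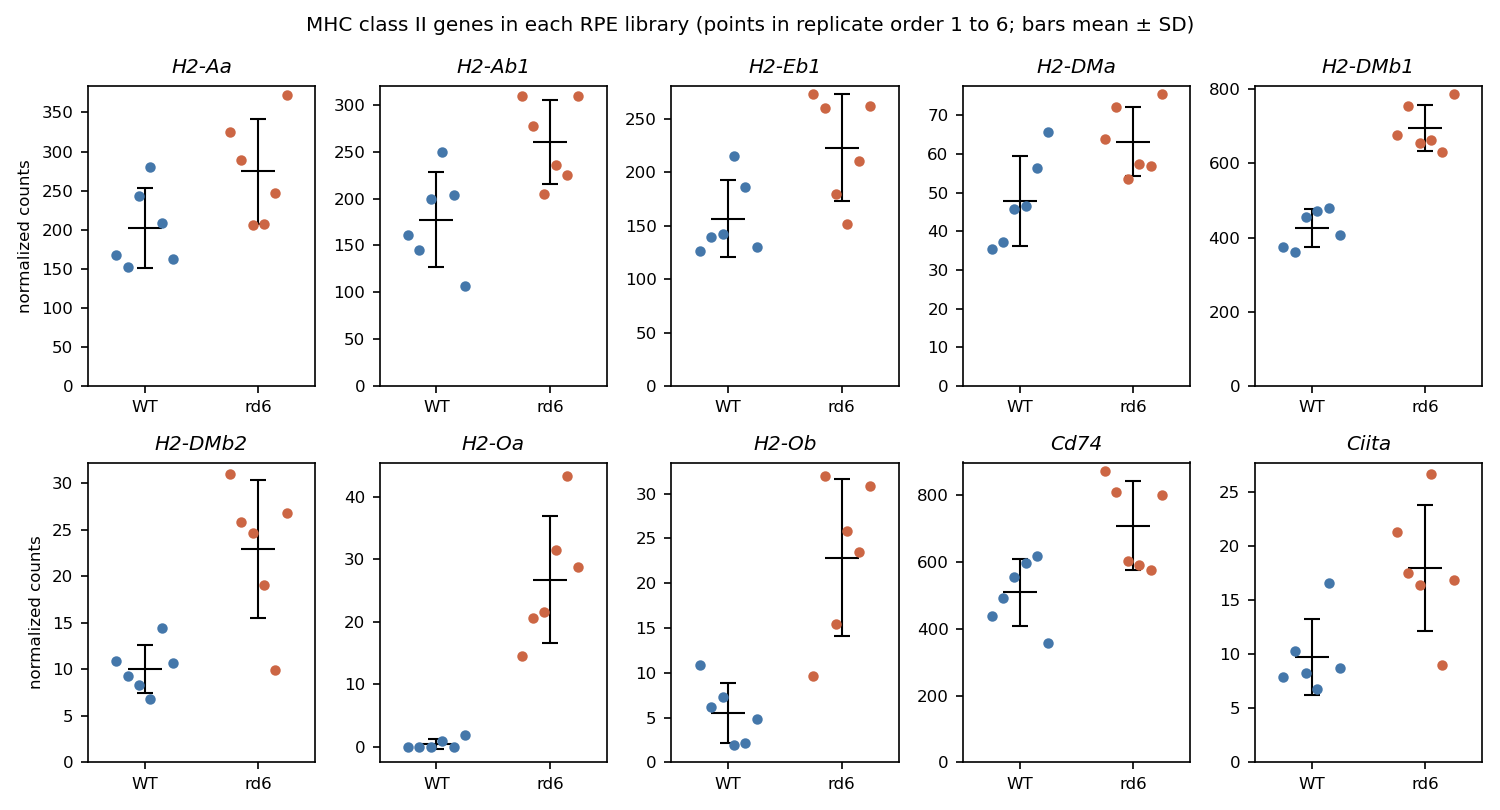
Normalized counts (vertical axis, from 0 except for a small margin under *H2-Oa*) of the 10 class II genes in the 6 WT and 6 rd6 libraries, 1 panel per gene; points are libraries in replicate order, and the black bars give the mean ± SD (n = 6). The rd6 points lie wholly above the WT points for *H2-DMb1* and *H2-Oa* and overlap them for the other 8 genes.

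DM, the peptide exchange factor, is built from *H2-DMa* and one of the β chains *H2-DMb1* and *H2-DMb2*. *H2-DMb1* was at 360.2 to 480.5 normalized counts in WT (median 431.6) and 631.1 to 787.3 in rd6 (median 669.4). Every rd6 library was above every WT library, which was so in 5.77% of all genes tested, and *H2-DMb1* rose with a log2 change of 0.71 (SE 0.09, limma q = 9.37e-05). *H2-DMb2* was scarce in WT, at 6.80 to 14.4 normalized counts (median 9.96). In rd6 it was at 9.93 to 31.0 (median 25.2), and 5 of 6 rd6 libraries lay above every WT library, the exception being replicate 5. It rose with a log2 change of 1.07 (SE 0.28, limma q = 0.0151). The β chain genes are neighbouring close paralogs whose reads may have been divided between them, and summed to 1 value they had a log2 fold change of 0.72 (limma q = 7.98e-05). *H2-DMa*, the α chain, was at 35.5 to 65.7 in WT (median 46.1) and 53.4 to 75.5 in rd6 (median 60.6). It had a log2 fold change of 0.42 (SE 0.17) and did not pass the test (limma q = 0.0964), although it did without WT replicate 6 (q = 0.0432). The annotation places 4 other genes over *H2-DMa*, *Brd2* among them, so that its count is uncertain.

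DO, the inhibitor of DM, is known mainly from B cells and thymic epithelium and consists of the *H2-Oa* and *H2-Ob* products. *H2-Oa* had 3 reads in the 6 WT libraries together, with 4 of the libraries at 0. In rd6 it had 166 reads together, with 14.5 to 43.3 normalized counts per library (median 25.2). No rd6 library came near the WT values. Against the floor of 3 reads per library, the rd6 mean was at least 8.05-fold higher. The fitted log2 fold change of 4.29 (SE 0.38, limma q = 4.91e-06) depends on the added 1 and is no bound. *H2-Ob* was at 1.94 to 10.8 in WT (median 5.51) and 9.69 to 32.0 in rd6 (median 24.6). Only replicate 1 of rd6 lay below a WT library, itself WT replicate 1. *H2-Ob* rose with a log2 change of 1.93 (SE 0.40, limma q = 0.00403), which was 1.06 with a pseudocount of 10. An antisense gene overlaps *H2-Oa*. The means of *H2-Oa*, *H2-Ob* and *Ciita* were below 10 in WT, so that these 3 genes passed the filter through the rd6 libraries. With no filter *H2-Oa* and *H2-Ob* also rose (limma q = 3.07e-06 and 0.0055). A list of 5 B cell markers summed to 5.54 to 25.1 normalized counts in WT and 15.5 to 72.2 in rd6. Among them *Ms4a1* had 0 to 3 reads per library in WT and 2 to 13 in rd6, and *Pax5* 0 to 3 and 5 to 10, while *Cd79b*, the single marker over the filter, did not pass the test (limma q = 0.216). Their part in the DO result was not tested.

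*Ciita*, the transactivator, was near the limit of detection. It had 7 to 15 reads per library in WT and 10 to 28 in rd6. In normalized counts it was at 6.80 to 16.6 in WT (median 8.50) and 9.03 to 26.7 in rd6 (median 17.2), and 4 of 6 rd6 libraries were above every WT library. The log2 fold change of 0.81 (SE 0.28) missed the limit (limma q = 0.0536). It passed without WT replicate 5 (q = 0.0225), the highest of its group, and without rd6 replicate 5 (q = 0.0165), the lowest. *Dexi*, a gene on the other strand, overlaps *Ciita*.

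In all, 6 of the 10 genes rose and none fell, beside 11.4% and 11.6% of all genes tested. Higher in rd6 by both limits were 3 genes, *H2-DMb2*, *H2-Oa* and *H2-Ob*, beside 4.69% of all genes, and 0 were lower. *H2-Oa* and *H2-Ob*, counted in both, were tested only because of their rd6 levels, so that nothing is read from these shares. With a pseudocount of 10 *H2-DMb2* (log2 fold change 0.69) was no longer called. A positive log2 fold change was found in 10 of 10 genes and in 50.7% of all genes. The median log2 fold change was 0.65 over the members and 0.00 over all genes tested. Both values of the members include *H2-Oa*, *H2-Ob* and *Ciita*, which passed the filter only through the rd6 libraries, so that nothing is read from either comparison. The count that rose depended on the fit. It was 3 with the replicate number as a block, 3 (with 0 called) where at least 10 was required in every library, which left 4 members untested, and 4 to 8 with 1 library left out. With WT replicate 4 and rd6 replicate 5 left out together, an alternative added after seeing the data, 9 rose and 4 were called.

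Levels can be compared between the genes only per length. Per kb of exon in WT, *Cd74* led with 303 ± 59.7 normalized counts (SD, n = 6), followed by *H2-DMb1* with 253 ± 30.6, and these neighbours overlapped. *H2-Eb1* with 80.6 ± 18.5, *H2-Ab1* with 69.2 ± 19.6 and *H2-Aa* with 53.3 ± 13.5 formed a middle tier whose neighbours also overlapped. *H2-DMa* with 13.9 ± 3.35 and *H2-DMb2* with 5.75 ± 1.49 stood apart from the tier and from each other. *H2-Ob* with 1.03 ± 0.622 and *Ciita* with 1.02 ± 0.371 were lower and overlapped. *H2-Oa* was under the floor of 3 reads, or 2.36 per kb, so that its place among these 3 genes is not known. In rd6 the order of the first 5 was as in WT, from *Cd74* with 422 ± 79.0 to *H2-Aa* with 72.3 ± 17.6. *H2-Oa* with 19.0 ± 7.22 overlapped *H2-DMa* with 18.3 ± 2.61, and in WT its limit of 2.36 lay below every library of *H2-DMa* and *H2-DMb2*.

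**Figure D2:**
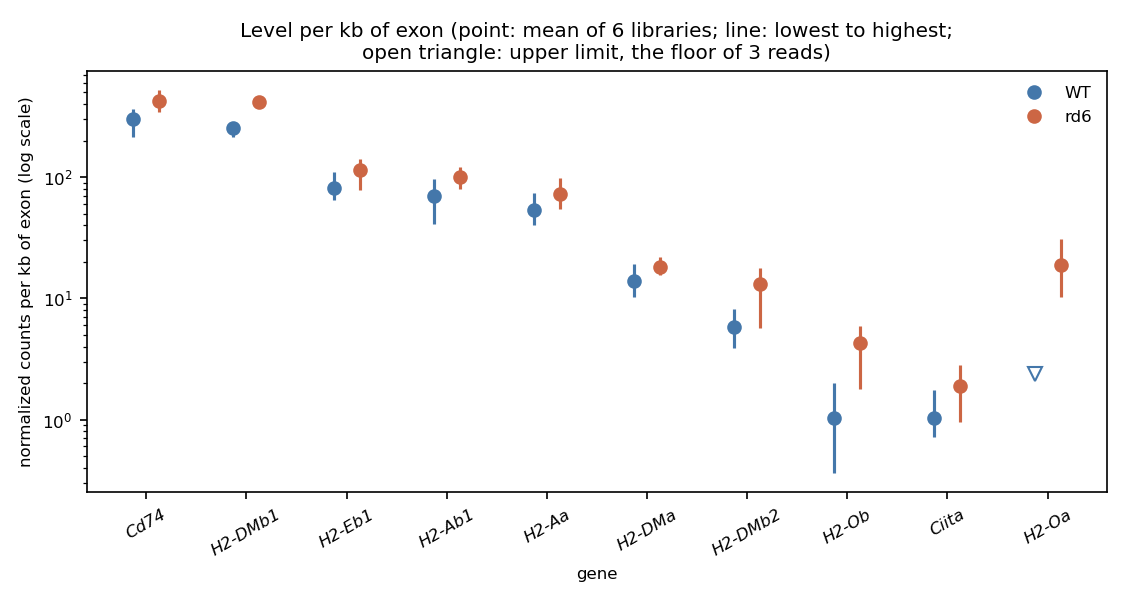
Normalized counts per kb of exon (log axis) of the 10 genes, ordered by their WT mean; points are means of 6 libraries and lines run from the lowest to the highest library, blue for WT and orange for rd6. *H2-Oa*, whose WT libraries were all at or under the floor of 3 reads, is drawn there as an open triangle at its upper limit of 2.36 and is at 19.0 in rd6, while the 5 most abundant genes keep their order.

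Within the genotypes some of the members varied together. With the mean of each genotype removed, the 6 pairs among *H2-Aa*, *H2-Ab1*, *H2-Eb1* and *Cd74* had Pearson r from 0.76 to 0.90 over the 12 libraries, and *H2-DMb1* had r from 0.68 to 0.79 with these 4 genes. The 4 pairs of these genes with *H2-Ob* had r from -0.51 to -0.28. In WT replicates 4 and 5 *H2-Ob* had 2 reads each, under the floor, so that nothing is read from its negative r. *Ciita* and *H2-DMb2*, both low, had r = 0.72 with each other. *H2-Oa* was left out of the pairs because its WT libraries were at or under the floor. These are descriptions over 12 libraries that share depth, dissection and cell make-up within each library. The genes outside the group whose centred values were most like the mean of the members were *Kti12* (r = 0.89), *Psmg4* (0.88), *4930579G24Rik* (0.87), *Numb* (0.86) and *H4c1* (0.86), all over 12 libraries. *H2-Oa* is included in this mean. These genes are the highest of all others tested, so that nothing is read from the size of r. Of these *Numb* alone changed between the genotypes (log2 fold change -0.20, limma q = 0.0169).

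**Figure D3:**
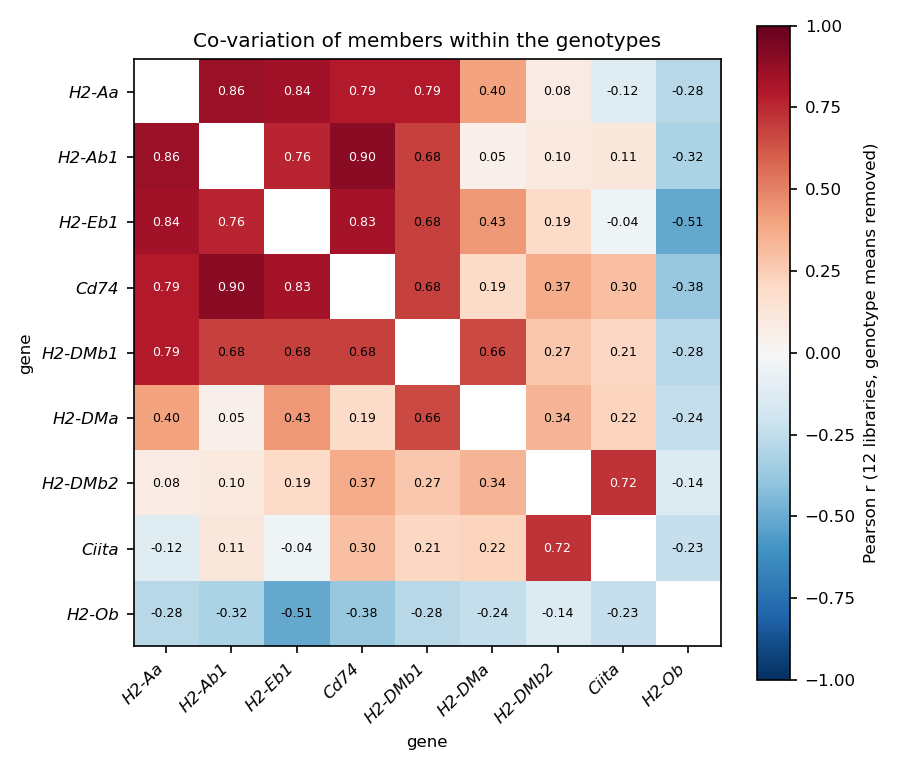
Pearson r between the log2 values of each pair of 9 class II genes (without *H2-Oa*) over 12 libraries after the mean of each genotype was removed; red is positive and blue negative. *H2-Aa*, *H2-Ab1*, *H2-Eb1* and *Cd74* form a block with r of 0.76 to 0.90, and their pairs with *H2-Ob* are at -0.28 or lower. Nothing is read from the *H2-Ob* pairs, since *H2-Ob* was under the floor in WT replicates 4 and 5.

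The other genes of the pathway were taken from lists of 46 names, of which 42 were in the table and 35 were tested. Of these 12 rose and 3 fell, beside 11.4% and 11.6% of all genes tested. Called higher were 6 and lower 0, beside 4.69% and 2.12% of all genes tested. The same shares stand beside the counts of each list below. None of the 7 proteins of the class II enhanceosome, the complex on the X and Y boxes that CIITA joins, had a gene that rose. *Creb1*, which codes for the X2-box factor, fell by 0.27 on the log2 scale (SE 0.06, limma q = 0.00565), from 1005 to 1257 normalized counts in WT (median 1148) to 867.7 to 1027 in rd6 (median 957.3). *Nfya*, a Y-box factor, fell by 0.20 (limma q = 0.0496), a call that was lost in 14 of 21 alternatives, and the remaining 5 had log2 fold changes from -0.21 to 0.11. *H2-Eb2* was under the filter with at most 4 reads per library, and the *H2-Ea* chain was not analysed here.

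Of 9 endolysosomal enzymes that cut the invariant chain and ready the antigens, 6 rose and 1 fell. *Ctss*, the cathepsin that trims the invariant chain in myeloid and B cells, was at 248.5 to 590.7 normalized counts in WT (median 327.3) and 2688 to 7294 in rd6 (median 5435). The rd6 libraries were all above the WT libraries, by a log2 fold change of 3.84 (SE 0.26, limma q = 4.95e-07). *Ifi30*, the thiol reductase of the lysosome, was at 475.0 to 741.0 in WT (median 597.9) and 989.6 to 1121 in rd6, again with no overlap (log2 fold change 0.82, limma q = 2.27e-05). *Ctsb*, *Ctsz*, *Ctsl* and *Lgmn* rose by less, with log2 fold changes from 0.33 to 0.55. *Sppl2a*, the protease that clears the last membrane-bound fragment of the invariant chain, fell by 0.34 (limma q = 0.00696). *Marchf1*, the ubiquitin ligase that removes class II from the surface, was at 31.0 to 88.8 in WT and 46.2 to 129 in rd6, with a log2 fold change of 0.12 (limma q = 0.799).

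Of the 8 genes tested on the axis from interferon γ to *Ciita*, 2 rose. *Ifng* itself had at most 1 read in any library. *Irf8*, a transcription factor of myeloid cells, was at 36.5 to 57.3 normalized counts in WT (median 52.3) and 117 to 252 in rd6 (median 226). Its groups did not overlap (log2 fold change 1.98, standard error 0.20, limma q = 1.40e-05). *Ifngr2*, a chain of the interferon γ receptor, also rose (log2 fold change 0.53, limma q = 0.00654). *Irf1* was at 1304 in WT replicate 4 and at 254 to 292 in the other WT libraries, against 383 to 1121 in rd6, and did not pass the test (limma q = 0.126). Of the 3 ligands and partners of CD74, *Cxcr4* rose with a log2 change of 0.71 (limma q = 0.0225, and 0.0504 without WT replicate 6 and 0.0506 without rd6 replicate 6), and *Mif* and *Cd44* did not pass.

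Of 4 tested genes of costimulation and checkpoint 2 rose, and of the 2 tested genes of receptors that bind class II, *Lag3* and *Cd4*, 1 rose. *Cd86*, a costimulatory ligand, was at 7.26 to 31.9 normalized counts in WT (median 16.5) and 44.6 to 118 in rd6 (median 66.3). Its rd6 libraries were all higher than its WT libraries (log2 fold change 2.03, standard error 0.32, limma q = 0.000564). *Cd40*, which receives T cell help, was at 5.80 to 19.4 in WT and 13.4 to 34.0 in rd6 (log2 fold change 1.16, limma q = 0.0194). With a WT mean of 9.76 it reached the filter only through the rd6 libraries. It did not pass with the replicate number as a block (limma q = 0.0802). *Cd274*, the checkpoint ligand PD-L1, was at 210 to 704 in WT and 202 to 446 in rd6 and did not pass (limma q = 0.702). *Lag3*, a receptor that binds class II, was at 41.6 to 76.4 in WT (median 51.2) and 182 to 465 in rd6 (median 368). It rose with a log2 change of 2.62 (SE 0.23, limma q = 4.75e-06). Which cells carried *Lag3* was not tested. *Cd4*, the coreceptor that binds class II, was at 6.90 to 38.7 in WT and 4.77 to 20.6 in rd6 (log2 fold change -0.80, limma q = 0.178). The genes of the CD3 complex had at most 3 reads per library in WT and 13 in rd6, all under the filter.

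**Figure D4:**
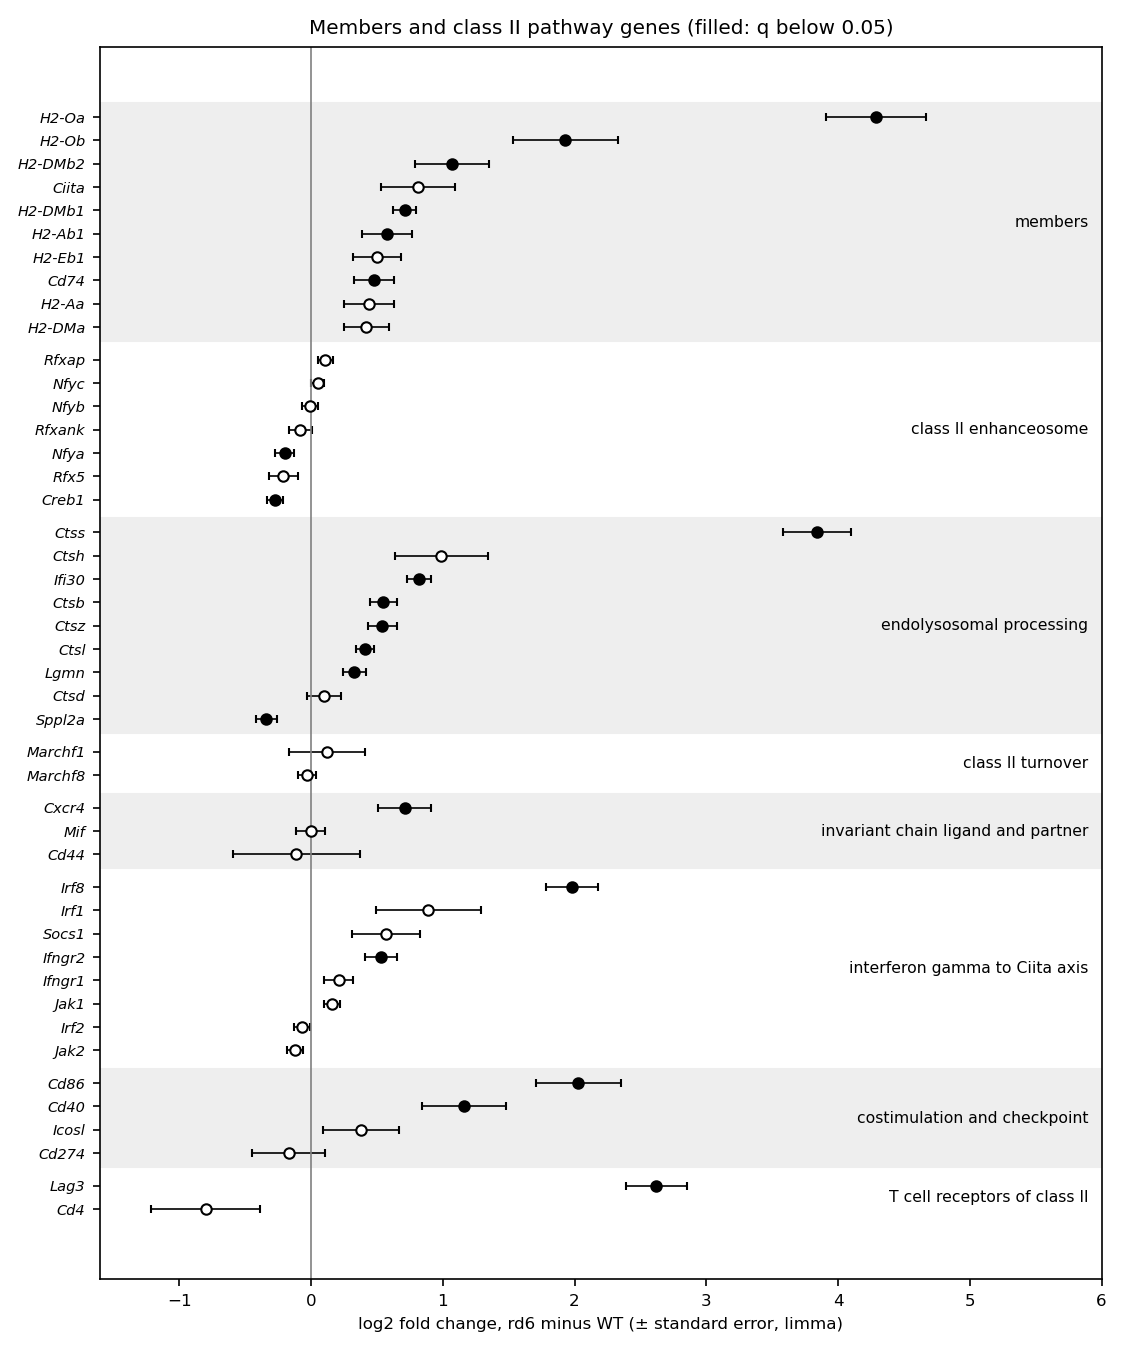
Log2 fold change of rd6 against WT (horizontal axis, ± standard error, limma, 6 libraries per genotype) of the 10 members and the 35 tested genes of the class II pathway lists; filled points have q below 0.05. Members lie between 0.42 and 4.29, the enhanceosome between -0.27 and 0.11, and *Ctss*, *Lag3*, *Cd86* and *Irf8* at 1.98 or higher.

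Markers of the cells that could carry class II moved in the same libraries. In bulk samples, fewer cells of a type and less RNA per cell cannot be told apart. Of 18 microglia and macrophage markers, 17 rose, among them *P2ry12*, *Trem2* and *Cx3cr1*. *P2ry13*, another of the 17, had a WT mean of 7.53 and reached the filter only through the rd6 libraries. *Itgam* is also counted there (limma q = 0.0237) but did not pass with edgeR (q = 0.207) or DESeq2 (q = 0.212), and in WT replicate 4 it was at 307.9, above 5 of 6 rd6 libraries. The exception was *Csf1r* (log2 fold change 0.12, limma q = 0.385), which made up 73.8% to 85.7% of the summed marker level in WT and 32.9% to 51.9% in rd6. The 18 markers summed to 17518 to 23841 normalized counts in WT and 33819 to 57884 in rd6, a 2.22-fold difference of the means. Without *Csf1r* the other 17 markers, which all rose, summed to 3122 to 5558 normalized counts in WT and 16282 to 37033 in rd6, a 7.22-fold difference of the means. The sum of *H2-Aa*, *H2-Ab1*, *H2-Eb1* and *Cd74* was 756.9 to 1344 in WT and 1186 to 1781 in rd6, a 1.40-fold difference. The highest class II sums, 1781, 1636 and 1747, were in rd6 replicates 1, 2 and 6, and the highest marker sum, 37033, was in rd6 replicate 4, whose class II sum was the lowest of its group at 1186. Replicate 6 had the next highest marker sum, 34007.

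**Figure D5:**
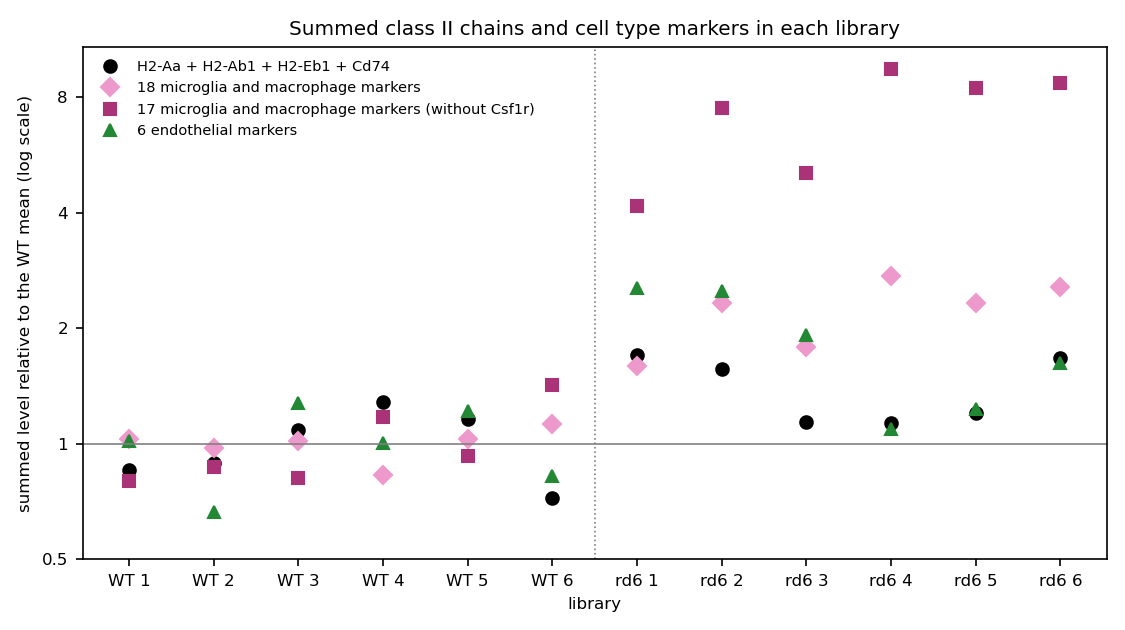
Summed level relative to the WT mean (log axis) in each of the 12 libraries, for the class II chains with *Cd74* (circles), 18 microglia and macrophage markers (diamonds), 17 of these without *Csf1r* (squares) and 6 endothelial markers (triangles). The markers of microglia and macrophages go up 2.22-fold in the mean, or 7.22-fold with the one marker that did not rise left out after seeing the data, the class II chains 1.40-fold and the endothelial markers 1.82-fold.

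Relative to the summed 18 markers, *Cd74* was at 2.45% ± 0.664 in WT and 1.58% ± 0.546 in rd6 (SD, n = 6), a mean log2 ratio that differed by -0.65 (exact permutation test over all splits into 6 and 6, two-sided p = 0.0346). Of these 18 markers 17 rose, which favours a lower ratio in rd6, so that nothing is read from this p-value. The value also depended on the markers chosen. Per 17 markers without *Csf1r*, an alternative added after seeing the data, *Cd74* was at 13.7% ± 3.98 in WT and 2.81% ± 1.37 in rd6 (log2 difference -2.34). This list holds only markers that rose, which favours a lower ratio in rd6, and the value is given with no test. Per *Csf1r* alone the log2 difference was 0.36 in the other direction (exact permutation p = 0.117), and per the list without the *C1q* genes it was -0.27 (p = 0.264, exact permutation). It also lost significance without any one of WT replicates 3, 4 and 5 and rd6 replicates 4, 5 and 6 (exact permutation p of at most 0.0693). Without a test, 7 of the 10 members had a lower mean ratio in rd6 than in WT per 18 markers, and 9 of 10 per 17 markers. A gene that rises by less than the marker sum tends to a lower ratio. The share over all genes was not computed, so that nothing is read from these counts. The members higher per 18 markers were *H2-DMb2*, *H2-Oa* and *H2-Ob*. *H2-Aa* was lower per 18 markers (0.607% ± 0.205 against 0.98% ± 0.346), as was *H2-DMa* (0.139% ± 0.0307 against 0.226% ± 0.0479). For *H2-Oa* the floor of 3 reads stands in for WT. Per 18 markers it was at 0.042% to 0.0881% in rd6, above the floor of 0.0139% to 0.019% in the WT libraries, whereas per 17 markers its rd6 range of 0.0705% to 0.131% overlapped the floor of 0.0598% to 0.106%. *H2-Ob* was higher in rd6 per 18 markers (0.0473% ± 0.0127 against 0.0259% ± 0.0151) and lower per 17 markers (0.0796% ± 0.0178 against 0.158% ± 0.118). *H2-DMb1* was lower in rd6 per 18 markers (1.53% ± 0.309 against 2.03% ± 0.388) and per 17 markers (2.68% ± 0.903 against 11.3% ± 2.48).

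Of 8 markers of perivascular macrophages and monocytes 2 rose, and the list summed to 1167 to 2590 normalized counts in WT and 3579 to 6012 in rd6. Most of this sum was *Lyz2*, a lysozyme gene of myeloid cells in general, with 1284 ± 543 of a mean sum of 1720 in WT and 4224 ± 953 of 4800 in rd6 (SD, n = 6). The other gene that rose was *F13a1* (log2 fold change 0.83, limma q = 0.0436, but q = 0.0729 with edgeR and 0.0943 with the replicate block). The monocyte genes *Ly6c2* (log2 fold change 1.20, limma q = 0.0552) and *Ccr2* (1.16, q = 0.0783) missed the limit, and the macrophage genes *Mrc1*, *Lyve1* and *Cd163* had q of 0.433 or higher. *Ly6c2* passed with DESeq2 (q = 0.0208) and edgeR (q = 0.0361), and *Ccr2* with DESeq2 (q = 0.0252) but not edgeR (q = 0.0537). With the replicate block neither passed (limma q = 0.102 and 0.145). Of 9 dendritic cell markers 3 were tested and 2 rose, *Itgax* (log2 fold change 2.48) and *Siglech* (2.27). *Siglech* had a WT mean of 6.4 and reached the filter only through the rd6 libraries. The sum of the list was 183.7 to 288.3 in WT and 311.1 to 485.5 in rd6. Most of it was the third, *Zbtb46*, with 206 ± 35.9 of a mean sum of 242 in WT and 271 ± 85.0 of 391 in rd6 (SD, n = 6), which did not pass (limma q = 0.232). *Flt3*, *Xcr1* and *Clec9a*, which define dendritic cells, were under the filter in both genotypes, and *Xcr1* had at most 5 reads in any library. The 6 T cell markers summed to 12.45 to 33.02 in WT and 21.87 to 51.54 in rd6. Of 6 endothelial markers 4 rose, and their sum of 4340 to 8315 in WT and 7138 to 16583 in rd6 was highest in rd6 replicates 1 and 2, as was *Cd74*. Replicate 3 was next in the endothelial sum (12544) with *Cd74* at 602.8, within the WT range, and replicate 6 had a lower sum (10571) with *Cd74* at 801.2. The RPE list had 4 of 7 genes that fell and the rod list 3 of 8. The part of these cells in the class II values was not tested.

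Beside the members, 12 other genes are annotated within the chromosome 17 span. Of the 5 that were tested, and beside 11.4% of all genes tested, 4 rose. They are the class I pathway genes *Psmb9* (log2 fold change 1.37, limma q = 0.00444), *Tap1* (1.13, q = 0.00112), *Psmb8* (1.35, q = 0.0274) and *Tap2* (0.55, q = 0.000217), which make and move peptides for class I. *Brd2*, which overlaps *H2-DMa*, had a log2 fold change of 0.00 (limma q = 0.966).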

How the data were processed

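RNA was sequenced from the RPE of 6 WT and 6 rd6 mice with a stranded total-RNA protocol. Per the methods, the authors used Rsubread at standard parameters for alignment to mm10 and counting, and DESeq2 for normalization (versions not given in the sources used here). The deposited signal is the number of reads of a gene over the size factor of the library. The authors deposited also log2 fold changes with errors, a Wald score and p-values from their own comparison, and none of these was used. After 5 repeated entries were dropped, 28591 genes remained. Every deposited value was a whole multiple of 1 read (within 0.01 reads), so that reads were recovered.

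The main test was limma 3.58.1 (R 4.3.3, lmFit and eBayes with trend) on log2(value + 1), with a minimum mean of 10 and genotype as the only term. This scale understates the change of low genes. Alternatives were edgeR 4.0.16 and DESeq2 1.42.0 on recovered reads, pseudocounts of 0.1 and 10, other filters, TMM rescaling, the replicate number as a block and leaving out each library. All fits were tested on simulated data. Named were all members, the called genes of each pathway list or, where none was called, the gene that changed most, the 5 genes most like the members and *Mfrp*, while further genes were picked with their values known. The members, lists and tests were chosen with earlier results of these data known. Some genes of the lists are not reported here and were left out of their counts and sums. Nothing says that libraries came from separate litters, and p-values measure the spread between these samples. Gene positions are from GENCODE M21 (GRCm38) and promoters from RefSeq (GRCm38.p6).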

Additional observations from a re-analysis of the deposited data

Results flagged for a closer look

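Of 42 groups of 6 libraries examined for a library far from the rest (the 10 class II genes and 11 pathway genes in each genotype), 3 were flagged, and chance flags about 5% of such groups. *Ciita* was at 16.6 normalized counts in WT replicate 5, where the next highest WT library was at 10.3. *Marchf1* was at 129.1 in rd6 replicate 5, where the next highest rd6 library was at 63.6. *Nfya* was at 670.9 in rd6 replicate 5, where the next lowest rd6 library was at 808. Both values of rd6 replicate 5 come from the library whose rod genes were at WT levels, and the part of that was not tested.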

How the results depend on the processing

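Over 22 alternatives, none reversed the direction of a class II gene. Of 207 recomputed log2 fold changes of members, 175 kept their side of the limit, 18 lost significance and 14 gained it. *H2-DMb1*, *H2-Oa* and *H2-Ob* kept significance in every alternative that tested them. Requiring at least 10 in every library left *H2-Oa*, *H2-Ob*, *H2-DMb2* and *Ciita* untested, so that 3 members rose and 0 were called higher. The labels number the replicates of both genotypes 1 to 6, but same-numbered libraries did not deviate together (mean correlation -0.245, from -0.743 to 0.315), and no library correlated best with its own number. With the replicate block 3 members rose in place of 6, since *H2-Ab1* (q = 0.125), *Cd74* (q = 0.129) and *H2-DMb2* (q = 0.0614) missed the limit, and *Cd40* (q = 0.0802) and *Cxcr4* (q = 0.0986) also did. *H2-Ab1* missed it with edgeR (q = 0.0514) and with no filter (q = 0.0515), *H2-Eb1* passed with DESeq2 (q = 0.0302) and TMM rescaling (q = 0.0484), and *Ciita* passed with edgeR (q = 0.0394) and TMM rescaling (q = 0.0489). Leaving out each library in turn gave 4 to 8 members that rose, 3 to 4 called higher, 5 to 8 pathway genes called higher, and 722 to 1050 genes called higher and 312 to 532 lower in all. *Marchf1* turned to -0.06 without WT replicate 4 and rd6 replicate 5 together, and ranged from -0.09 to 0.24 with 1 library left out. *Cd74* per summed markers was -0.80 to -0.54 with 1 library left out, -0.65 with the replicate block (sign-flip permutation within pairs, exact p = 0.0938), -0.27 per the list without *C1q* genes and 0.36 per *Csf1r* alone. *Nfya*, close to the limit, lost significance in most of them, and the cause of these changes was not tested. *H2-Oa* ranged from 1.77 to 6.69 on the log2 scale with the pseudocount and test, since its WT level is under the floor of 3 reads. *H2-Ob* ranged from 1.06 to 2.15, and with a pseudocount of 10 *H2-DMb2* was at 0.69, under the 1.75-fold limit, so that 2 members were called higher.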
